A study of Mus musculus with 6 samples.

Results

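The genes described here are 10 transcription factors of the lung mesenchyme, Hlx, Tbx2, Tbx3, Tbx4, Tbx5, Foxf1, Tcf21, Meox2, Twist1 and Prrx1. They were chosen by name, with earlier results of these data known. Every probe set annotated to exactly 1 of these genes was taken. This gave 24 probe sets among 45037 tested and 10 genes among 18193 named. Hopx-null lungs (genotype Hopx -/-) were compared with wild-type lungs (Hopx +/+), both microdissected whole from mouse embryos at the embryonic stage E16.5 on a mixed strain background, with 3 biological replicates of each genotype and 1 Affymetrix expression array per sample. The labels do not say how the null allele was made or whether littermates were used. Values are log2 expression per probe set. A gene's main probe set is the one with the highest mean over the 6 lungs. The comparison asks how loss of Hopx, a small atypical homeodomain protein known in the lung as a marker of type I alveolar cells, alters transcript levels in the fetal lung.

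The lung mesenchyme surrounds the branching epithelium and gives rise to fibroblasts, airway and vascular smooth muscle and airway cartilage. Its transcription factors are set up by hedgehog, Wnt and bone morphogenetic protein signals and in turn control the growth factors, such as Fgf10, that direct branching. Several of the 10 genes are required for lung, gut, heart or limb development in mice.

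Hopx checked the labels. At its main probe set, 1428662_a_at, it read 10.64, 10.35 and 10.47 in Hopx-null lungs, against 12.50, 12.44 and 12.26 in wild-type lungs, and it fell by 1.91 on the log2 scale (limma, Benjamini-Hochberg adjusted p = 0.0228). This call was lost without Hopx-null replicate 2 or 3 or wild-type replicate 2 or 3 (limma adjusted p from 0.103 to 0.413). At the probe set 1451776_s_at it read 4.59, 4.59 and 4.96 in Hopx-null lungs, against 10.96, 10.59 and 10.41 in wild-type lungs, and it fell by 5.94 on the log2 scale (limma, Benjamini-Hochberg adjusted p = 0.000375). The Hopx-null values there are just above the lower quartile of all probe set means (4.29), and whether background limits the size was not tested. At the main probe set the Hopx-null values stayed above the upper quartile of those means (9.02). Why the 2 Hopx probe sets differ in this was not tested. The 2 Hopx probe sets were the only ones of 45037 to pass the adjusted threshold of 0.05 (0.00444%). Between arrays, correlations over all probe sets were 0.991 to 0.995 within a genotype and 0.989 to 0.995 between genotypes. Wild-type replicates 2 and 3 carried Y-linked signal (mean log2 of 4 Y-linked genes 6.67 and 6.69), and the other 4 lungs did not (2.56 to 2.62). All Hopx-null lungs were among those 4, so sex was not balanced between the genotypes for any gene described here. As a check of the tissue, 9 of 12 lung epithelial markers and 13 of 16 fibroblast and matrix markers lay above the upper quartile of all probe set means (9.02). The epithelial list comprised 4 genes with higher and 8 with lower means in Hopx-null lungs, with a median log2 difference of -0.14. In whole lungs, fewer cells of a type and less RNA per cell cannot be told apart, and the mesenchymal origin of each transcript was not measured.

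None of the 24 probe sets passed the test (limma, Benjamini-Hochberg, adjusted p from 0.878 to 0.992), against 0.00444% of all probe sets. Hlx was the 1 member with an unadjusted p under 0.05, which is 4.17% of the 24 probe sets, against 4.77% of all. The groups did not overlap at 3 probe sets, 12.5% against 10.1% of all. By main probe set, 7 of the 10 genes had higher means in Hopx-null lungs and 3 had lower means, and the median log2 difference was 0.09, against 0.01 over all genes. Leaving out wild-type replicate 3 gave a median of 0.035 for the 10 genes, and leaving out wild-type replicate 2 gave 0.044. Over the whole array, 52.2% of genes had higher means in Hopx-null lungs. The shares under the unadjusted threshold and without overlap were thus close to those of the whole array. These counts and the median include Hlx, which was picked out in an earlier look at these data.

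**Figure D1:**
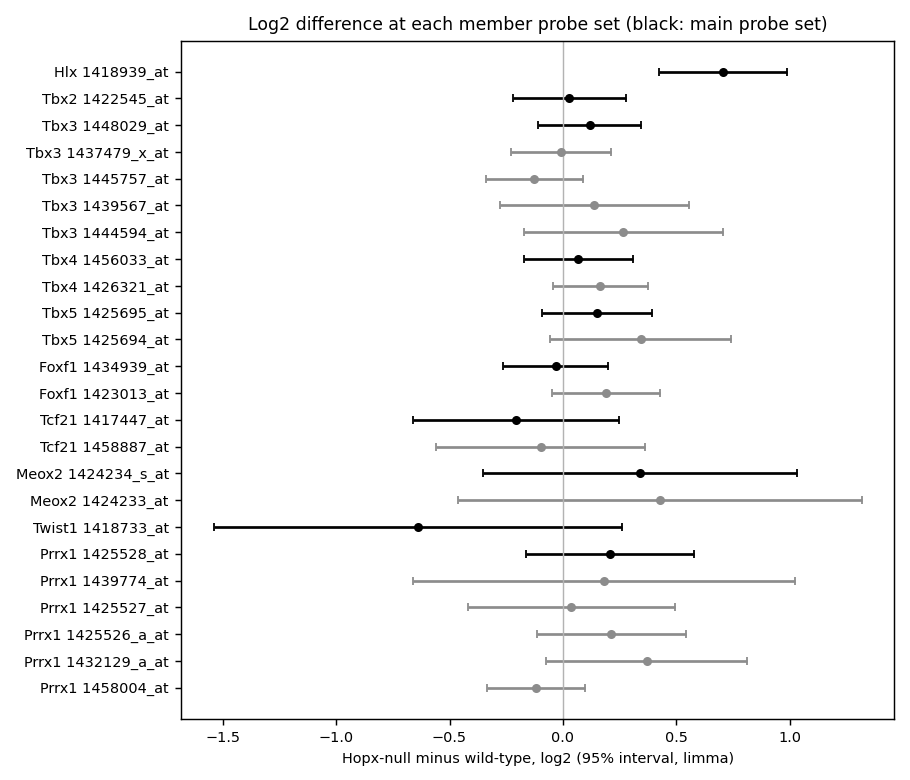
Hopx-null minus wild-type log2 difference at each of the 24 probe sets (horizontal axis), with 95% intervals from limma, black for the main probe set of each gene and grey for the others. The interval of Hlx lies above 0, and the other 23 include 0.

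Hlx encodes a homeobox factor of visceral mesenchyme that is needed for growth of the fetal liver and gut in mice. Its single probe set, 1418939_at, read 9.83, 10.12 and 10.19 in Hopx-null lungs, against 9.36, 9.40 and 9.26 in wild-type lungs. All 3 Hopx-null lungs lay above all 3 wild-type lungs, with a gap of 0.43 between the nearest samples. The means were 10.04 ± 0.19 and 9.34 ± 0.07 (SD, n = 3 each), a log2 difference of 0.70 (SE 0.12, 95% interval 0.42 to 0.99), which corresponds to 1.63-fold (95% interval 1.34 to 1.98). Its unadjusted p was 0.000663, and after adjustment over all probe sets it was 0.878 (limma, Benjamini-Hochberg). Of the 18193 genes, 9 had a smaller unadjusted p at their main probe set, Hopx among them. Hlx was picked out in an earlier look at these data, so its place near the top is a description. Leaving out each lung in turn kept the difference between 0.63 and 0.81, with adjusted p from 0.20 to 1.00 (limma, Benjamini-Hochberg), and the lowest adjusted p came without Hopx-null replicate 1. The Hlx difference was 0.68 with Y-linked signal as a covariate, a fit that in effect sets the Hopx-null lungs against wild-type replicate 1. The part of sex in the Hlx values was not tested.

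Hlx lies on chromosome 1. The 250 bases before its RefSeq start (GRCm38.p6, minus strand) are shown because Hlx had the largest difference of the 10 genes. Both strands were searched for sequences that the families of these factors bind, namely the E-box CANNTG of basic helix-loop-helix proteins such as Tcf21 and Twist1, the T-box site AGGTGTGA, the forkhead sequence TGTTTAC and the homeodomain core TAATTA. Overlapping matches were counted, and of 32851 promoter windows of this length 66.2% hold an E-box, 1.12% the T-box site, 3.17% the forkhead sequence and 4.84% the homeodomain core. None of these letters occur in the Hlx window, chr1:184732494-184732743, where 41.6% of bases are G or C, written in lower case as nothing is marked.
Hlx: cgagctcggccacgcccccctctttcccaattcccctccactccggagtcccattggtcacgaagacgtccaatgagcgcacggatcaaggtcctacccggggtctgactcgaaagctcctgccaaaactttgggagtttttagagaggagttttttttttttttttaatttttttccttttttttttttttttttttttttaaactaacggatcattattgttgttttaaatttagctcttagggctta

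Among 11437 other genes with a mean above the median probe set, those whose profile over the 6 lungs was most like that of Hlx were Ubash3b, Ptx3 and Ntf5. Likeness was the root mean square difference between log2 values centred on each gene's own mean, which was 0.10 for Ubash3b, 0.13 for Ptx3 and 0.13 for Ntf5. Ubash3b, a phosphatase of receptor signalling, read 7.23, 7.45 and 7.52 in Hopx-null lungs, against 6.95, 6.96 and 6.74 in wild-type lungs. Its groups did not overlap, and its adjusted p was 0.878 (limma, Benjamini-Hochberg), as for Ptx3 and Ntf5. The lack of overlap follows from choosing these genes for their likeness to Hlx, and is no separate result. In the RefSeq gene order, the measured neighbours of Hlx are Dusp10, a phosphatase that inactivates stress-activated kinases, and Mtarc1. Dusp10 read 9.58, 9.86 and 9.82 in Hopx-null lungs, against 9.37, 9.41 and 9.34 in wild-type lungs, without overlap (log2 difference 0.38, SE 0.10, limma adjusted p = 0.878). Mtarc1 read 3.79, 4.04 and 3.74 in Hopx-null lungs, against 3.88, 3.65 and 3.80 in wild-type lungs, below that lower quartile, and its groups overlapped.

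**Figure D2:**
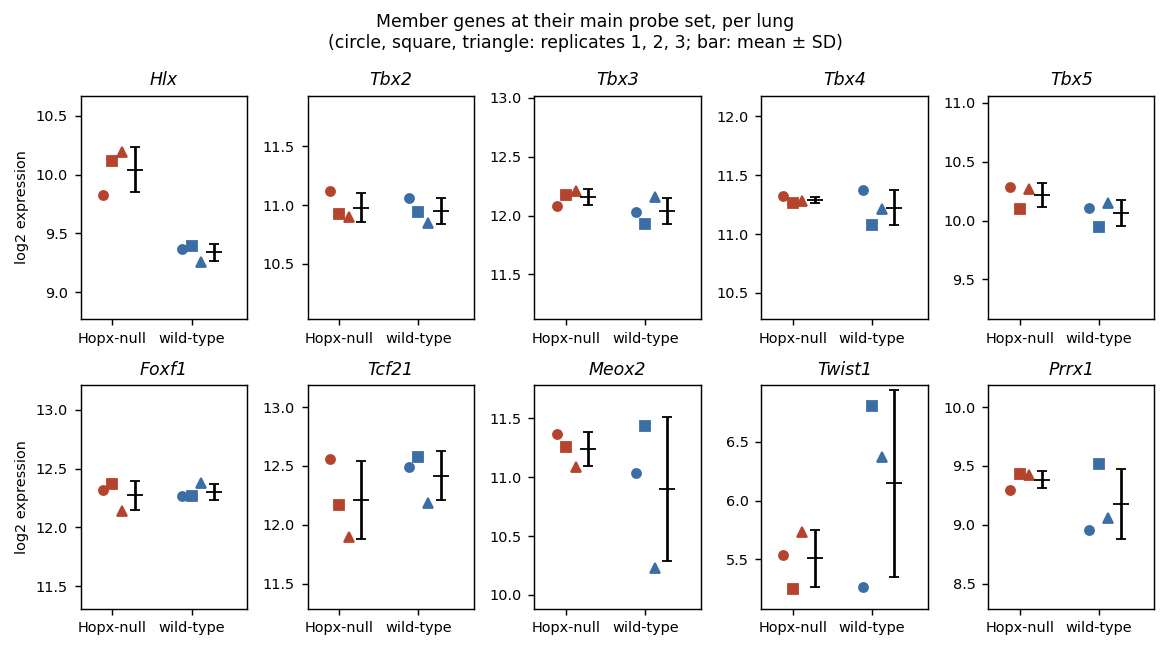
Log2 expression at the main probe set of each of the 10 genes, with Hopx-null lungs on the left and wild-type lungs on the right of each panel, markers for replicates 1 to 3 and bars for the mean ± SD. Every panel spans the same log2 range. Hlx is the panel without overlap, and the widest spread is among the wild-type lungs for Meox2 and Twist1.

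Tbx2, Tbx3, Tbx4 and Tbx5 belong to the T-box family. Tbx2 and Tbx3 are mainly repressors that keep fetal lung mesenchyme proliferating, and Tbx4 and Tbx5 are activators that act with Fgf10 signalling in bud outgrowth. Tbx2 and Tbx4 are adjacent coding genes on chromosome 11, and Tbx3 and Tbx5 are adjacent on chromosome 5, with 0 coding genes between the genes of each pair. Hopx is also on chromosome 5, with 377 coding genes between it and Tbx5.

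Tbx2 read 11.12, 10.92 and 10.90 in Hopx-null lungs, against 11.06, 10.94 and 10.85 in wild-type lungs at 1422545_at. The groups overlapped almost fully, and the log2 difference was 0.03 (95% interval -0.22 to 0.28), with both signs when lungs were left out in turn (-0.04 to 0.09). Tbx3 had 5 probe sets that did not share a direction. At its main probe set, 1448029_at, it read 12.08, 12.18 and 12.21 in Hopx-null lungs, against 12.03, 11.93 and 12.15 in wild-type lungs, and 2 of the 3 Hopx-null lungs lay above all wild-type lungs. The log2 difference there was 0.12 (95% interval -0.11 to 0.34).

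The probe set 1437479_x_at of Tbx3, of similar brightness, differed by -0.01 (95% interval -0.23 to 0.21). At 1445757_at, Tbx3 read 8.24, 8.28 and 8.19 in Hopx-null lungs, against 8.30, 8.30 and 8.48 in wild-type lungs. This was the 1 member probe set whose Hopx-null values all lay below the wild-type values, against 4.54% of all probe sets, and the gap between the nearest samples was 0.02. Its log2 difference was -0.13 (95% interval -0.34 to 0.09). At 1439567_at the difference was 0.14 (95% interval -0.28 to 0.55). The remaining Tbx3 probe set, 1444594_at, read 2.40 to 3.09 in Hopx-null and 2.41 to 2.68 in wild-type lungs, below the lower quartile of all probe set means. Its level there is near background.

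Tbx4 read 11.32, 11.27 and 11.28 in Hopx-null lungs, against 11.38, 11.08 and 11.21 in wild-type lungs at 1456033_at. The log2 difference was 0.07 (95% interval -0.17 to 0.31), and all Hopx-null values lay within the wild-type range. At its dimmer probe set, 1426321_at, Tbx4 read 7.40, 7.33 and 7.29 in Hopx-null lungs, against 7.27, 7.12 and 7.14 in wild-type lungs. The groups did not overlap there, with a gap of 0.02 and a log2 difference of 0.17 (95% interval -0.04 to 0.37). With Hlx, this made 2 member probe sets without overlap on the higher side, against 5.6% of all probe sets.

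Tbx5 read 10.28, 10.10 and 10.27 in Hopx-null lungs, against 10.11, 9.94 and 10.15 in wild-type lungs at 1425695_at. The groups overlapped through Hopx-null replicate 2, and the log2 difference was 0.15 (95% interval -0.09 to 0.39). The dimmer probe set 1425694_at read 5.16, 5.66 and 5.75 in Hopx-null lungs, against 5.25, 5.06 and 5.23 in wild-type lungs. It differed by 0.34 (95% interval -0.06 to 0.74), with Hopx-null replicate 1 within the wild-type range, and by 0.52 without that lung (limma adjusted p = 0.443). For the 4 T-box genes, the 95% intervals at the main probe sets all lay between -0.25 and 0.5 on the log2 scale.

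Foxf1 encodes a forkhead factor of visceral mesoderm, a target of hedgehog signalling that is needed for lung vessel development. At 1434939_at it read 12.32, 12.36 and 12.14 in Hopx-null lungs, against 12.26, 12.27 and 12.38 in wild-type lungs. The groups overlapped, and the log2 difference was -0.03 (95% interval -0.26 to 0.20), or 0.83-fold to 1.15-fold. At the dimmer probe set 1423013_at it read 7.63, 7.84 and 7.89 in Hopx-null lungs, against 7.60, 7.54 and 7.65 in wild-type lungs. There Hopx-null replicates 2 and 3 lay above every wild-type lung, and the log2 difference was 0.19 (95% interval -0.05 to 0.43).

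Tcf21 encodes a basic helix-loop-helix factor of fibroblast progenitors that is needed for lung mesenchyme and branching in mice. At 1417447_at it read 12.56, 12.17 and 11.90 in Hopx-null lungs, against 12.49, 12.57 and 12.18 in wild-type lungs. Hopx-null replicates 2 and 3 lay below all wild-type lungs and Hopx-null replicate 1 within their range, and the log2 difference was -0.21 (95% interval -0.66 to 0.25). The value was -0.05 without Hopx-null replicate 3 and -0.38 without Hopx-null replicate 1. The second probe set, 1458887_at, was also lowest in Hopx-null replicate 3 (6.83) and differed by -0.10 (95% interval -0.56 to 0.36). Hopx-null replicate 3 had the largest log2 difference between 3' and 5' probe sets of the control transcripts of any lung, at 1.51 for actin, where the others ranged from 1.15 to 1.25, and the part of this in the Tcf21 values was not tested.

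Meox2 and Twist1, both on chromosome 12, varied most among the 10 genes at their main probe sets. The pooled within-genotype SD was 0.45 for Meox2 and 0.59 for Twist1, above 95.2% and 97.9% of all probe sets, and the median over all probe sets was 0.16. The 250 bases before each RefSeq start (GRCm38.p6, plus strand) are shown because these 2 genes vary most, with the E-box in capitals. The Meox2 window, chr12:37108290-37108539, holds 1 E-box that begins 82 bases before the start and none of the other 3 sequences. The Twist1 window, chr12:33957421-33957670, holds none of the 4. G and C make up 62.0% of bases in the Meox2 window and 62.4% in the Twist1 window.
Meox2: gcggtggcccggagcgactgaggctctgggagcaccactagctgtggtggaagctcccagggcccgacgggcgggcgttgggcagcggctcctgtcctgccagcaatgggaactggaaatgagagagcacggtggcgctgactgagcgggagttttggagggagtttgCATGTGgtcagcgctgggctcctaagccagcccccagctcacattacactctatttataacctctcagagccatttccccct
Twist1: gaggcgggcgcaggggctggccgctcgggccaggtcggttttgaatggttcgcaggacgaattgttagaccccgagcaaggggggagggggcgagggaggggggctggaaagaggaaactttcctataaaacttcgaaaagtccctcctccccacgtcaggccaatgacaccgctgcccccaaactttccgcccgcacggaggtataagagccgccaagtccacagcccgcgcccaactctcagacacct

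Meox2 encodes a homeobox factor of somite-derived muscle and of vascular cells. At 1424234_s_at it read 11.37, 11.26 and 11.09 in Hopx-null lungs, against 11.04, 11.43 and 10.23 in wild-type lungs. All 3 Hopx-null lungs lay within the wild-type range, in which replicate 3 was far below the other two. The probe set 1424233_at had the same low lung, with 10.27, 10.12 and 9.97 in Hopx-null lungs, against 9.90, 10.37 and 8.80 in wild-type lungs. The log2 differences were 0.34 (95% interval -0.35 to 1.03) and 0.43 (95% interval -0.46 to 1.32) at these probe sets. Without wild-type replicate 3 they were 0.0041 and -0.02, and without wild-type replicate 2 they were 0.61 and 0.77 (limma adjusted p = 0.709 and 0.715).

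Twist1 encodes a basic helix-loop-helix factor of cranial, limb and skeletal mesenchyme. Its single probe set, 1418733_at, read 5.54, 5.25 and 5.74 in Hopx-null lungs, against 5.27, 6.81 and 6.37 in wild-type lungs. The mean over the 6 lungs, 5.83, lay below the median of all probe set means (6.69). Wild-type replicates 2 and 3 were high, and wild-type replicate 1 lay among the Hopx-null lungs. The log2 difference was -0.64 (SE 0.38, 95% interval -1.54 to 0.26, limma adjusted p = 0.878). It was -1.08 without wild-type replicate 1 (limma adjusted p = 0.684) and -0.31 without wild-type replicate 2.

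The 2 wild-type lungs with high Twist1 were those with Y-linked signal and with the highest cartilage markers. Whether this cartilage RNA came from the airways or from other cartilage was not measured. The mean log2 level over the 11 cartilage markers measured was 5.84, 5.22 and 6.15 in Hopx-null lungs, against 5.25, 7.31 and 7.59 in wild-type lungs. Of these 11, 10 had lower means in Hopx-null lungs, with a median log2 difference of -1.11, which was -0.58 if wild-type replicate 3 was left out and -1.81 if wild-type replicate 1 was. Acan, the main cartilage proteoglycan, differed by -1.71, Col9a3 by -1.66 and Col9a1 by -1.56, and 0 of the 11 passed the test. The collagen Col9a1, a cartilage-defining gene, read 7.62, 5.35 and 8.38 in Hopx-null lungs, against 5.24, 10.32 and 10.47 in wild-type lungs, so wild-type replicate 1 and Hopx-null replicate 2 were lowest in both Twist1 and Col9a1. The part of cartilage content or of sex in the Twist1 values was not tested. With Y-linked signal as a covariate, a fit that in effect sets the Hopx-null lungs against wild-type replicate 1, the Twist1 difference was 0.25 (limma adjusted p = 1.00).

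**Figure D3:**
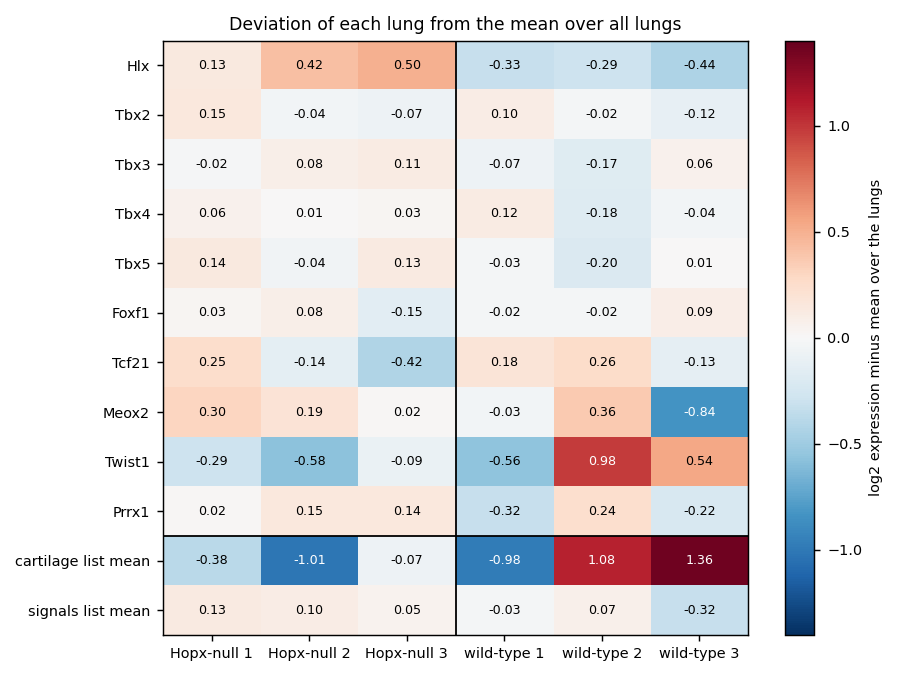
Log2 deviation of each lung from the mean over the 6 lungs, for the 10 genes at their main probe set and for the means of the cartilage and signalling lists, with Hopx-null lungs left of the line and wild-type lungs right of it. Hlx is above its mean in all Hopx-null lungs and below it in all wild-type lungs, Twist1 is high in wild-type replicates 2 and 3, and Meox2 is low in wild-type replicate 3.

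Prrx1 encodes a paired-related homeobox factor of limb and craniofacial mesenchyme, also on chromosome 1, and had 6 probe sets. At its main probe set, 1425528_at, it read 9.30, 9.43 and 9.42 in Hopx-null lungs, against 8.96, 9.52 and 9.06 in wild-type lungs. All 3 Hopx-null lungs lay within the wild-type range, whose top was wild-type replicate 2, and the log2 difference was 0.21 (95% interval -0.16 to 0.58). It was 0.38 without wild-type replicate 2 (limma adjusted p = 0.662) and 0.10 without wild-type replicate 1. The other Prrx1 probe sets lay below the median of all probe set means (6.69). Their log2 differences ran from -0.12 at 1458004_at, which is below the lower quartile, to 0.37 (95% interval -0.07 to 0.81) at 1432129_a_at, and the remaining 3 differed by 0.04, 0.18 and 0.21. With Y-linked signal as a covariate, which in effect leaves wild-type replicate 1 as the wild-type lung, the difference was 0.43 at 1425528_at, 0.92 at 1439774_at, 0.48 at 1425526_a_at and 0.68 at 1432129_a_at. The last 3 had unadjusted p of 0.0308, 0.0188 and 0.0218, and an adjusted p of 1.00 each (limma, Benjamini-Hochberg). The 250 bases before the RefSeq start of Prrx1 held 1 homeodomain core and no E-box, and those of Tbx4 held 3 E-boxes.

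Of the 7 genes with several probe sets, 4 had all of them on the same side of 0, Tbx4, Tbx5 and Meox2 with higher and Tcf21 with lower means in Hopx-null lungs. For Tbx3, Foxf1 and Prrx1 the probe sets were on both sides. At 17 of the 24 probe sets the log2 difference was under 0.25 in size, and at 11 the 95% interval lay within -0.5 to 0.5. By main probe set, wild-type replicate 2 was the highest lung for 4 of the 10 genes and the lowest for 3, and wild-type replicate 3 was the lowest for 3. No lung was highest or lowest for all 10.

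The paralogs of these factors and the other T-box genes, 17 genes measured, comprised 8 with higher and 9 with lower means in Hopx-null lungs, and 0 passed the test. Foxf2, the paralog of Foxf1 and also a factor of visceral mesenchyme, read 9.01, 9.13 and 8.82 in Hopx-null lungs, against 8.61, 8.58 and 8.11 in wild-type lungs. Its groups did not overlap, with a log2 difference of 0.56 (95% interval 0.17 to 0.94, limma adjusted p = 0.878). Msc, a basic helix-loop-helix factor, differed by -0.41, and Tbx18, a T-box factor of mesothelium and vessel wall cells, by -0.41. Tbx18 read 5.58, 5.19 and 5.80 in Hopx-null lungs, against 5.25, 6.70 and 5.83 in wild-type lungs, and like Twist1 it was highest in wild-type replicate 2. Of the 17 genes, 6 lay below the lower quartile of all probe set means.

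Among 26 signals, receptors and antagonists listed for early lung mesenchyme, 21 had higher and 5 had lower means in Hopx-null lungs, and 0 passed the test. The median log2 difference was 0.11, against 0.01 over all genes, of which 52.2% had higher means. Which cells expressed the listed genes was not measured. Rspo2, a secreted Wnt enhancer, read 6.26, 6.44 and 5.63 in Hopx-null lungs, against 5.55, 5.58 and 3.82 in wild-type lungs (log2 difference 1.13, 95% interval -0.04 to 2.30). Gli1, a transcriptional effector and target of hedgehog signalling, read 8.25, 8.43 and 8.76 in Hopx-null lungs, against 7.46, 8.33 and 6.95 in wild-type lungs (log2 difference 0.90, 95% interval 0.09 to 1.71). Wnt2, a mesenchymal Wnt ligand, differed by 0.43 (95% interval -0.17 to 1.04). For all 3 the lowest lung was wild-type replicate 3, as for Meox2, and the list mean of that lung was 8.23, against 8.59 to 8.67 in Hopx-null lungs and 8.52 and 8.61 in the other wild-type lungs. Without wild-type replicate 3 the list had 18 genes higher and 8 lower, with a median of 0.04.

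Among 23 other mesenchymal transcription regulators, 14 had higher and 9 had lower means in Hopx-null lungs, with a median of 0.03 and 0 past the test. Foxc2, a forkhead factor of vessel and skeletal mesenchyme, differed by -0.64 and was, like Twist1, highest in wild-type replicates 2 and 3 (7.03, 7.09 and 7.34 in Hopx-null lungs, against 6.94, 7.97 and 8.46 in wild-type lungs). Nr2f1, a nuclear receptor, differed by 0.45 and Heyl, a Notch target, by 0.37. Fibroblast and matrix markers comprised 6 higher and 10 lower with a median of -0.03, and 10 higher and 6 lower with a median of 0.05 without wild-type replicate 2. Dcn, Lum and Pdgfra differed by -0.34, -0.33 and -0.27. The matrix proteoglycan Lum read 5.67, 4.78 and 5.63 in Hopx-null lungs, against 3.51, 6.74 and 6.83 in wild-type lungs, with the same high lungs as Twist1.

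Smooth muscle markers were divided 6 higher and 4 lower, with Lmod1 at -0.26, Myh11 at 0.25 and Actg2 at 0.24. Mesothelial markers were divided 6 and 2 (Lrp2 0.62, Lrrn4 0.32, Upk3b 0.25), with list means of 9.28, 9.56 and 9.50 in Hopx-null lungs, against 9.35, 9.53 and 8.94 in wild-type lungs, lowest in the lung with the lowest Meox2. Blood endothelial markers were divided 7 and 3 (Cldn5 0.31, Sox17 -0.19, Tek 0.17). Lung epithelial markers were divided 4 and 8 as given above (Sox2 -0.77, Foxa2 -0.28, Elf3 -0.26). Sox2 read 8.57, 7.95 and 8.02 in Hopx-null lungs, against 8.49, 9.25 and 9.10 in wild-type lungs. Like Twist1, Sox2 was highest in wild-type replicates 2 and 3. Cardiac markers were divided 8 and 2 (Myh7 0.73, Nppa -0.67, Myl2 0.63) and skeletal muscle markers 6 and 4 (Myf5 0.40, Tnni2 -0.20, Myog 0.16). Blood cell markers were divided 4 and 4 (Cd3e -0.34, C1qa -0.30, Csf1r 0.18). Whether these transcripts came from the lung or from tissue dissected with it was not measured. Cardiac list means were 9.14, 9.10 and 9.54 in Hopx-null lungs, against 8.72, 9.15 and 9.45 in wild-type lungs. Tbx5, which heart muscle also expresses, had a higher mean in Hopx-null lungs, as did 8 of the cardiac markers. Its lowest lung was wild-type replicate 2, and that of the cardiac list was wild-type replicate 1. The part of heart tissue in the Tbx5 values was not tested. No gene of these lists passed the test.

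**Figure D4:**
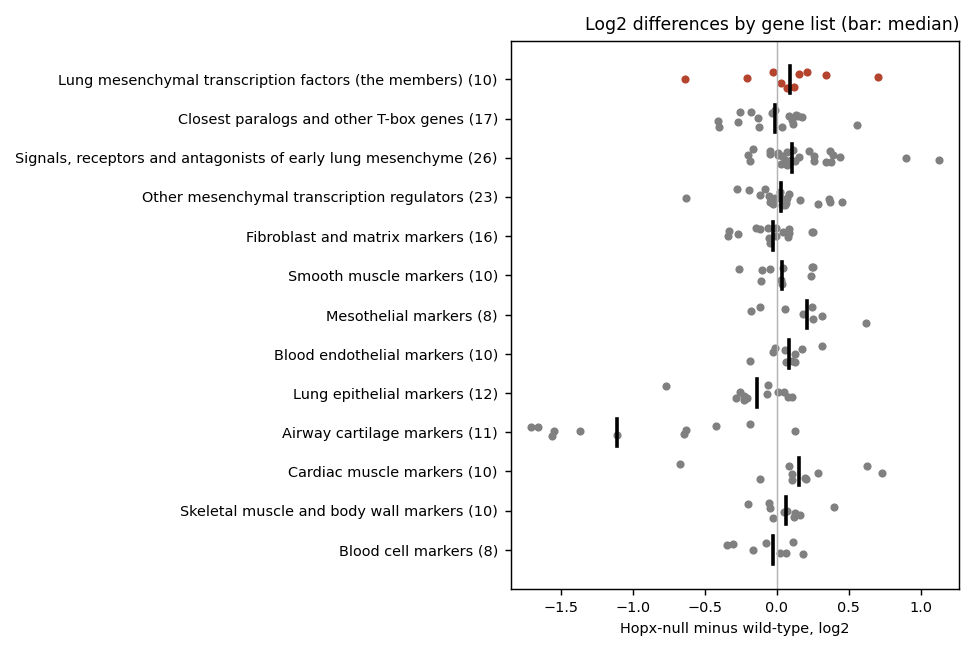
Hopx-null minus wild-type log2 difference of each measured gene at its main probe set (horizontal axis) in the 10 genes (red) and in 12 other lists (grey), with the list's median as a bar and the number of genes in brackets. The median of the 10 genes is 0.09, and the cartilage list has the lowest median, -1.11 (-0.58 to -1.81 with a lung left out).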

How the data were processed

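The data were the deposited series matrix of 45101 probe sets, 64 of them controls that were left out. Per the submitters' processing notes, the authors' deposited log2 values came from RMA and Partek 6.6, with no role or order given. No header gives the base, and log2 was taken from their range. RMA equalises the arrays' distributions, so a shift of most transcripts would not be visible. Per the labels' protocols, RNA was primed with poly(T), which favours 3' sequence.

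Genes were named from the platform annotation (1 gene for 34945 probe sets, several for 932, none for 9160), and promoter sequences come from RefSeq (GRCm38.p6), where 6 of the 10 genes matched. Tbx2, Tbx3, Tbx5 and Foxf1 have none in that table. The genotype test was limma's moderated fit (lmFit, eBayes; limma 3.58.1, R 4.3.3), with Benjamini-Hochberg adjustment over 45037 probe sets. The script was tested on simulated data. Differences are Hopx-null minus wild-type. The number of arrays limits the precision.

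The members and lists were chosen with earlier results of these data known. Named were every member probe set, the 3 genes of each list with the largest difference, the 3 profiles most like Hlx and its measured neighbours. Lum, Foxc2, Tbx18 and Sox2 values per lung, and those of Col9a1, were chosen after seeing them. Lists were described without a test, with 168 entries in 12 lists.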

Additional observations from a re-analysis of the deposited data

How the results depend on the processing

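None of the 24 probe sets passed the adjusted threshold under any alternative run, namely repeated quantile or median normalization, filters on dim probe sets, trend and robust options, a replicate block, weights per array, Y-linked signal as a covariate, an adjusted p under 0.1, the mean of a gene's probe sets, and each lung left out. The lowest adjusted p over these was 0.20, for Hlx (limma, Benjamini-Hochberg). Hlx kept its direction in all 15 alternatives, at 0.63 to 0.81. Of 336 recomputed values, 311 kept their direction and 25 changed sign, at 10 probe sets with small or spread-out differences, and the cause was not tested.

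The Hopx probe set 1428662_a_at was the call lost with the replicate block (limma adjusted p = 0.299) and with the Y-linked covariate (limma adjusted p = 0.387). The count of all probe sets passing was 1 with the replicate block and 1 with the Y-linked covariate, against 2, and 1 to 23 with a lung left out. Whether same-numbered lungs were paired is not known. Their deviations from the genotype means correlated at -0.10, -0.12 and 0.18, which cannot settle this with so few lungs. The replicate block changed no member's call. Member probe sets with an unadjusted p under 0.05 numbered 4 with the Y-linked covariate, Hlx and 3 of Prrx1, when 3.92% of all probe sets met that threshold, and 1 to 4 with a lung left out, against 1. They numbered 4 of the 24 without wild-type replicate 2 (against 7.06% of all probe sets) and 3 without Hopx-null replicate 1 (against 7.86%). They were 2 without Hopx-null replicate 2 (against 3.54%) and 2 without wild-type replicate 1 (against 4.98%). Without Hopx-null replicate 3 (against 3.12%) or wild-type replicate 3 (against 3.23%) there was 1. Member probe sets without overlap numbered 2 with median normalization, against 3. They numbered 3 to 10 with a lung left out, by construction more often than with all lungs. Leaving out wild-type replicate 2 gave 10 (23.5% of all probe sets), Hopx-null replicate 1 gave 9 (25.4%), wild-type replicate 3 gave 6 (17.2%), and Hopx-null replicate 2 and wild-type replicate 1 gave 5 each (19.1% and 20.8%).

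With the Y-linked covariate the sign turned for Tbx2 (-0.086), the Tbx3 probe set 1437479_x_at (0.068), Tbx4 at 1456033_at (-0.087), Foxf1 at 1434939_at (0.0092) and Twist1 (0.25). Array weights gave 0.014 for that Tbx3 probe set and 0.0077 for that of Foxf1, quantile normalization 0.0047 for the same Tbx3 probe set, and the mean of the Foxf1 probe sets was 0.080. With a lung left out, both signs occurred for Tbx2 (-0.040 to 0.086), Tbx3 at 1437479_x_at (-0.045 to 0.060) and 1439567_at (-0.0033 to 0.26), Tbx4 at 1456033_at (-0.0046 to 0.14), Foxf1 at 1434939_at (-0.077 to 0.037), Tcf21 at 1458887_at (-0.23 to 0.073), Meox2 at 1424233_at (-0.018 to 0.77), and Prrx1 at 1439774_at (-0.18 to 0.52) and 1425527_at (-0.072 to 0.24). The counts of genes higher in each list with a lung left out were added after seeing the data, and among the 10 genes they were 6 to 8. They moved by over 1.5 times for fibroblast markers (10, against 6, without wild-type replicate 2), epithelial markers (2, against 4, without wild-type replicate 3), blood cell markers (2, against 4, without Hopx-null replicate 2) and cartilage markers (2, against 1, without wild-type replicate 3). Signal near background limits 1444594_at and 1458004_at.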
